A study of Mus musculus with 8 samples.

Results

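Hhex, Tle3 and 5 surface proteins of naive, activated or memory B cells were examined in mouse germinal centre B cells sorted by zone. All probe sets whose only gene symbol in the platform annotation was Hhex, Tle3, Fcer2a, Nt5e, Cd44, Cd69 or Cd55 were taken, which gave 18 of 45037 probe sets, for 7 of 18193 named genes. The cells came from lymph nodes of C57BL/6 mice immunized under the skin with NP-KLH in alum 12 days earlier, and all were sorted as B220+CD38-CD95+ before the zones were separated. There were 4 arrays of light zone cells and 4 of dark zone cells, called biological replicates in the labels, with no statement of whether an array holds RNA of 1 mouse or of several. The germinal centre is the site where activated B cells divide and mutate their antibody genes (dark zone) and are then selected by antigen and T cell help (light zone). Some of the selected cells leave as memory B cells.

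HHEX is a homeobox transcription factor that, in mice, promotes the formation of memory B cells from germinal centre cells, and TLE3 is a corepressor of the Groucho family that acts with it. Corepressors of this family do not bind DNA themselves and are recruited by transcription factors. The other 5 genes encode proteins used to sort naive, activated or memory B cells. These are CD23 (Fcer2a, the low-affinity IgE receptor), CD73 (Nt5e, an enzyme that makes adenosine from AMP outside the cell), CD44 (a receptor for hyaluronan), CD69 (an early activation antigen that holds lymphocytes in tissue by removing the receptor S1PR1 from the surface) and CD55 (which protects cells from complement).

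The sequences upstream of 4 of these genes are shown because 3 of them (Hhex, Tle3, Fcer2a) were called higher in light zone cells and 1 (Nt5e) lower. They are from RefSeq on GRCm38.p6, 5′ to 3′ on the gene's own strand, and run to the base before the first annotated base of the gene. Capitals mark matches to the motifs searched.
Hhex, chr19:37434591-37434840, + strand: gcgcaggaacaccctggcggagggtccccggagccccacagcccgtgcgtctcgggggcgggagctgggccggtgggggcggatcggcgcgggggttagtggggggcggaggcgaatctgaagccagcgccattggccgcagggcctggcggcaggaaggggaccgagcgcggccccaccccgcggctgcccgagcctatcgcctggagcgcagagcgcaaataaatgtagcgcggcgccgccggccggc
Tle3, chr9:61372116-61372325, + strand: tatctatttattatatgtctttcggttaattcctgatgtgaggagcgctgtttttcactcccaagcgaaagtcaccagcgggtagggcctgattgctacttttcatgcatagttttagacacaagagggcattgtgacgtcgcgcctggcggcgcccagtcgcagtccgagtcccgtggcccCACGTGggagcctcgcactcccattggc
Fcer2a, chr8:3694175-3694424, - strand: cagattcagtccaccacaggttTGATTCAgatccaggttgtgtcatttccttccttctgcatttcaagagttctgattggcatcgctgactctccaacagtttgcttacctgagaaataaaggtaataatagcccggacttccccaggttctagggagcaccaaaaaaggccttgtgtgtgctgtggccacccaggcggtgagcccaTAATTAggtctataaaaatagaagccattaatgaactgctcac
Nt5e, chr9:88327359-88327608, + strand: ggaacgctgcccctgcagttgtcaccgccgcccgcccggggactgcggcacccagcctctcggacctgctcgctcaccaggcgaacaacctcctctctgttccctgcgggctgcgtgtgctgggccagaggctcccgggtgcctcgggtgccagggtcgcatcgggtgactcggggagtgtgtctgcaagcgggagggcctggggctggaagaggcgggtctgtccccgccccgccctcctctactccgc

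Windows of 250 bases before a start were searched on both strands for TTC and GAA with 4 bases between them (STAT6), GGGAC or GGGAA followed by TTTCC (NF-kB), GCGTGGGCG and GCGGGGGCG (EGR), TGANTCA (AP-1), CACGTG (E-box), and CAATTAA and TAATTA (homeobox). RefSeq gave 8 such windows for 6 of the 7 genes, while Cd69 is named only. The E-box occurred in the Tle3 window and in 6.02% of all 32851 windows. The Fcer2a window shown held an AP-1 match (6.75% of all windows) and a TAATTA match (4.84%), which do not overlap. A window at another Fcer2a start held a STAT6 match (5.85% of all windows) and an AP-1 match, and the Cd44 window held a STAT6 match. No window of the 6 genes held an NF-kB, EGR or CAATTAA match, and the shares in all windows were 0.14% and 0.0852% for NF-kB, 0.536% and 2.57% for EGR and 2.31% for CAATTAA. The 250-base windows of Hhex and Nt5e had a G and C content of 76.0% and 72.0%, with 32 and 21 CpG dinucleotides, against a median of 52.4% and 6 CpG over all windows. These 2 genes differed between the zones in opposite directions.

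In the labels, light zone cells are CXCR4hi/CD83lo and dark zone cells are CXCR4lo/CD83hi, the reverse of the usual definition, and the mRNA of both genes went against that wording. Cd83 had an intensity of 7158 to 7631 in light zone arrays and 1363 to 1624 in dark zone arrays, and Cxcr4 had 758 to 854 in light zone arrays and 1418 to 1677 in dark zone arrays. Fas, which encodes CD95, had 1176 to 1320 in light zone arrays and 1002 to 1109 in dark zone arrays, and Ptprc, which encodes the B220 protein, was bright in every array. Groups were taken from the titles, and every direction below is for arrays labelled light zone or dark zone. Intensities are the deposited RMA values on a linear scale, with an array median between 27.3 and 28.1, and differences are light zone minus dark zone on the log2 scale, from which all folds are taken. Probe sets with a mean at or above the middle of all probe sets (an intensity of 27.8) were tested with limma over 22519 probe sets, and called at an adjusted p under 0.05. Of 10 listed germinal centre B cell genes, all 8 with a probe set here were above this level, and Cd38 was not analysed here. In sorted bulk cells, a larger share of cells with a transcript and more of it per cell cannot be told apart.

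Of the 18 probe sets, 16 were bright enough to test, and the 2 others were dim probe sets of Tle3 and Cd44, near the floor of the arrays (lowest intensity 5.63). Of the 16, 7 were called higher in the light zone, 4 lower, and 5 were not called, where 40.8% of all tested probe sets were called (21.4% higher and 19.3% lower). The arrays of the zones did not overlap in 11 of the 16, against 39.1% of all tested probe sets. By the brightest probe set of each gene, 4 of the 7 (Hhex, Fcer2a, Cd69 and Tle3) were higher in light zone cells, Nt5e and Cd44 were lower, and Cd55 was not called. By the same measure 41.1% of all tested genes were called, and the arrays did not overlap in 41.3% of them. Among the 22519 differences, Hhex ranked 9th from the highest and Nt5e 71st from the lowest.

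**Figure D1:**
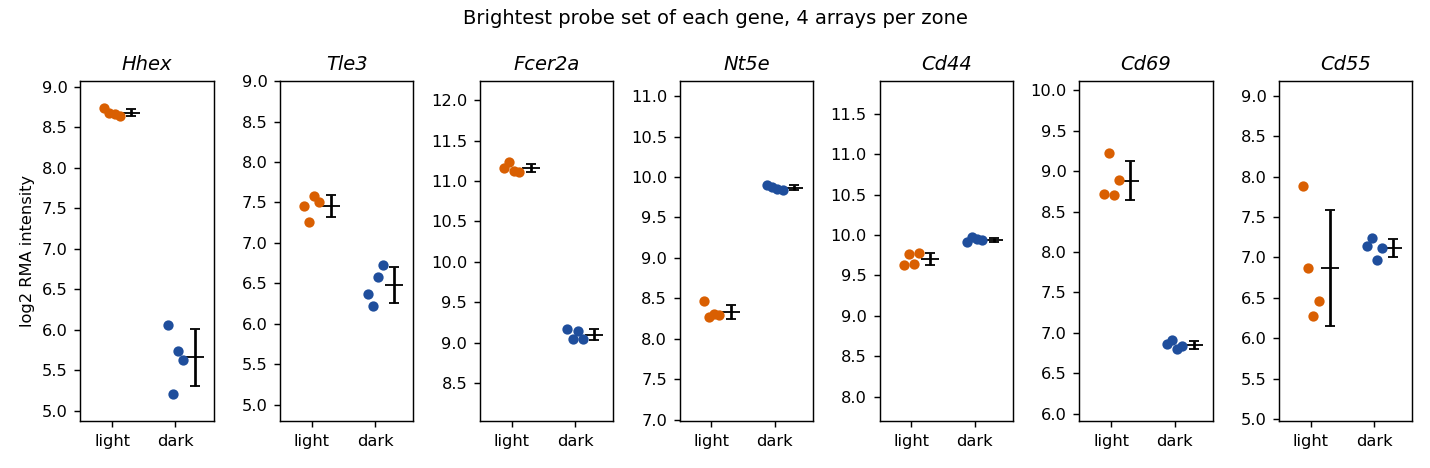
Log2 RMA intensity of the brightest probe set of each gene in 4 light zone arrays (orange, left) and 4 dark zone arrays (blue, right), with the mean and SD beside the points and the same span on every axis. Hhex, Tle3, Fcer2a and Cd69 are higher in all light zone arrays, Nt5e and Cd44 are lower in all of them, and the light zone arrays of Cd55 are spread on either side of the dark zone arrays.

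Hhex, the transcription factor, had the largest difference of the 7 genes. Its single probe set (1423319_at) had intensities of 428, 411, 405 and 399 in the light zone arrays, against 66.5, 36.9, 53.4 and 49.5 in the dark zone arrays. The light zone arrays lay within a narrow range far above the dark zone arrays, which were close to the brightness needed for a test. The means were 410.8 ± 12.4 in light zone arrays and 51.6 ± 12.2 in dark zone arrays (SD, n = 4 each), and the log2 values differed by 3.02, or 8.14-fold (SE 0.14, limma adjusted p = 3.5e-08). RMA compresses differences near the floor, so the fold may be understated. Leaving out any array gave 2.87 to 3.16.

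Tle3, the corepressor, was about 2 times as bright in the light zone. The brightest of its 4 probe sets (1419655_at) had intensities of 176, 153, 191 and 182 in the light zone arrays, against 82.8, 74.8, 95.5 and 106 in the dark zone arrays, with no overlap. The difference was 0.97 (SE 0.11, limma adjusted p = 3.0e-05). Probe set 1458512_at of Tle3 had 73.5 to 94.1 in light zone arrays and 36.0 to 47.0 in dark zone arrays, with a difference of 0.93 (SE 0.10, limma adjusted p = 2.2e-05). For 1419654_at the values were 49.8 to 59.2 in light zone arrays and 31.6 to 45.8 in dark zone arrays, a smaller difference of 0.53 (SE 0.11, limma adjusted p = 0.0027). The fourth probe set of Tle3 lay near the floor, at 13.9 to 16.4 in light zone arrays and 14.1 to 16.9 in dark zone arrays. With all 4 averaged the difference was 0.61 (limma adjusted p = 1.6e-05).

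Of the other genes of the TLE family, 1 was called, with a small difference. Tle4 was higher in the light zone by 0.30 (SE 0.08, limma adjusted p = 0.011), with 862 to 999 in light zone arrays and 705 to 857 in dark zone arrays. Its call was lost when its 3 probe sets were averaged (0.11, adjusted p = 0.19). Of these, 1 was below the filter, at 12.6 to 16.7 in light zone arrays and 14.1 to 19.0 in dark zone arrays. The other tested probe set was not called (0.23, SE 0.14, adjusted p = 0.22). Tle1 (-0.19), Tle5 (-0.12) and Tle6 (-0.02) were not called, and Tle2 was below the filter, at 14.5 to 17.5 in light zone arrays and 15.0 to 17.1 in dark zone arrays. Whether Tle3 differed more than Tle4 was not tested.

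Among genes whose expression is known to depend on HHEX in mouse B cells, the survival gene Bcl2 was higher in the light zone, by all 4 of its probe sets above the filter. The brightest had 166, 121, 117 and 114 in the light zone arrays, against 52.0, 42.3, 41.9 and 53.7 in the dark zone arrays, and differed by 1.44 (SE 0.13, limma adjusted p = 4.4e-06). The other 3 gave 0.69 to 1.82, and 2 of them were below the filter's level in the dark zone on average (26.8 and 19.7) and were tested only through the light zone. Bcl6, the repressor that maintains the germinal centre state, gave different answers by probe set. The brighter one had 3038 to 3240 in light zone arrays and 3166 to 3764 in dark zone arrays and was not called (-0.14, SE 0.07, adjusted p = 0.15). The dimmer one had 161 to 204 in light zone arrays and 252 to 353 in dark zone arrays, and was called lower in the light zone (-0.65, SE 0.12, limma adjusted p = 9.2e-04). Averaged, they gave -0.39 (adjusted p = 0.0015). Ski, a transcriptional regulator, was at 0.27 (SE 0.10, adjusted p = 0.061), and passed without dark zone replicate 2 (0.33, adjusted p = 0.031), with arrays centred on the median (adjusted p = 0.039) and with array weights (adjusted p = 0.047).

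**Figure D2:**
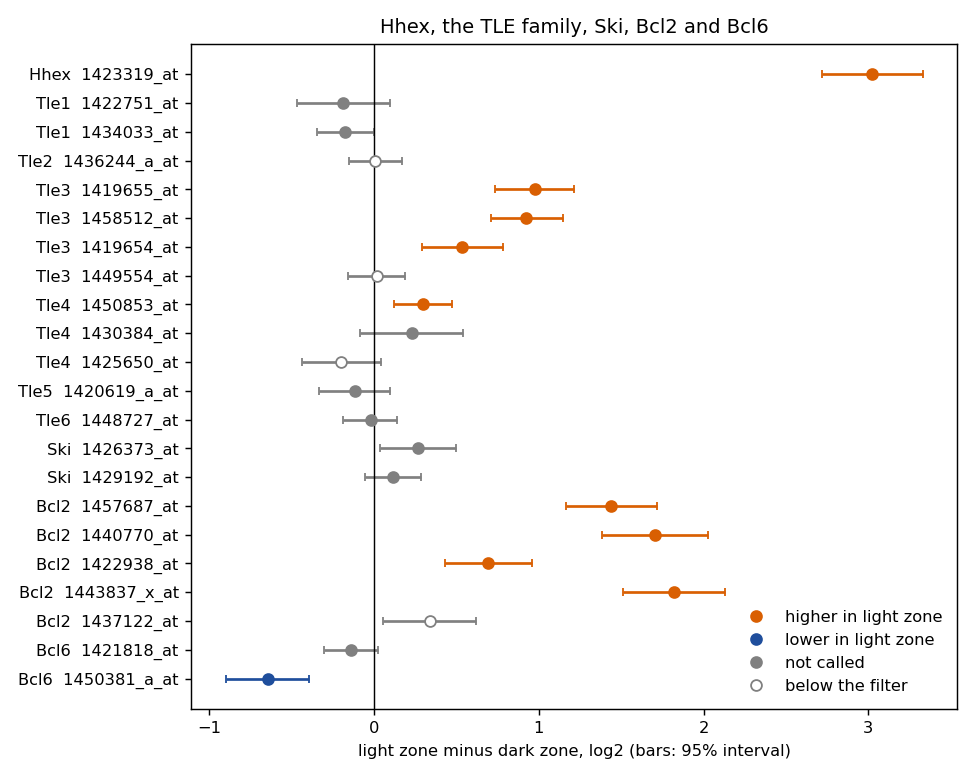
Light zone minus dark zone difference (log2) with its 95% interval for every probe set of Hhex, the TLE genes, Ski, Bcl2 and Bcl6, orange where called higher and blue where called lower in the light zone, grey where not called and open where below the filter. The 3 brighter Tle3 probe sets lie at 0.53 to 0.97. Those of Tle4 above the filter lie at 0.30 and 0.23, and those of Tle1, Tle5 and Tle6 at -0.19 to -0.02.

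In a list of HHEX and TLE partners, regulators and targets without Hhex and Tle3 themselves, 4 of 13 tested genes were called higher in light zone cells and 0 lower, with 9 not called and a median of 0.02. Over all 10547 tested genes, by their brightest probe set, 23.6% were higher and 17.5% lower, with a median of 0.01. The 4 were Bcl2, Pml (0.92, SE 0.13), which encodes the scaffold protein of nuclear bodies, the SKI-related gene Skil (0.50, SE 0.07, and 0.18 with its probe sets averaged) and Tle4. The count lower in the light zone was 1 with averaged probe sets.

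Fcer2a, which encodes CD23, was 4.16 times as bright in the light zone. The brighter of its 2 probe sets (1422122_at) had 2298, 2401, 2231 and 2222 in the light zone arrays, against 575, 531, 568 and 527 in the dark zone arrays. The arrays of each zone lay close together and far from the other zone. The difference was 2.06 (SE 0.06, limma adjusted p = 2.8e-09). The dimmer probe set, of a type that covers several transcripts of a gene, had 177, 109, 181 and 117 in the light zone arrays, against 76.2, 69.5, 66.6 and 51.0 in the dark zone arrays. It also rose, by 1.13 (SE 0.17, limma adjusted p = 3.4e-04), and varied more within the light zone.

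In a list of CD23 regulators and partners, 5 of 7 tested genes were called higher in light zone cells and 0 lower, with a median of 0.43, against 23.6% higher and 17.5% lower of all tested genes. With averaged probe sets 1 gene of the list was lower. They included Cr2 (0.98, SE 0.09), which encodes a complement receptor that binds CD23, and the transcription factor genes Stat6 (0.74, SE 0.07), which acts below the IL-4 receptor, and Rbpj (0.54, SE 0.10), which acts with Notch. The receptor gene Notch2 was at 0.43 (SE 0.10), but was not called with its probe sets averaged (0.15, adjusted p = 0.054). Il4ra (0.11) and Adam10 (-0.02), the protease that sheds CD23, were not called.

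Because CD23 is also a marker of naive follicular B cells, the listed genes of that cell type are given beside it. All 5 tested genes of the list (Klf2, S1pr1, Btla, Fcmr and Tnfrsf13c) were called higher in light zone cells, by 0.32 to 1.95. Over all tested genes, 23.6% were called higher. The sum of the 7 listed genes with a probe set was 11834 to 13853 in light zone arrays and 8303 to 9497 in dark zone arrays, without overlap. Most of the sum and of its gap came from Tnfrsf13c and Btla, which were bright in both zones. Their means were 5227 and 4566 in light zone arrays and 3545 and 3672 in dark zone arrays. Ccr7, at 25.9 to 44.5 in light zone arrays and 12.02 to 18.02 in dark zone arrays, and Il7r were below the filter. The part of naive cells in the difference of Fcer2a was not tested.

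Cd69 was 4.08 times as bright in the light zone. Its only probe set (1428735_at) had 420, 599, 417 and 473 in the light zone arrays, against 116, 120, 111 and 115 in the dark zone arrays. The dark zone arrays were nearly equal, and the lowest light zone array stood far above all of them. The difference was 2.03 (SE 0.11, limma adjusted p = 8.1e-08). T cells also carry CD69, CD44 and CD73. The T cell gene Cd3e was near the filter, at 35.9 to 40.7 in light zone arrays and 35.0 to 40.7 in dark zone arrays, and Cd3g was near the floor, at 10.7 to 11.7 in light zone arrays and 9.42 to 12.0 in dark zone arrays. Of 10 T cell genes, 9 had a probe set, 3 were above the filter and 1 (Lat) was called higher in the light zone. Over all tested genes, 23.6% were called higher. The sum of the 9 was 265 to 287 in light zone arrays and 240 to 254 in dark zone arrays, without overlap. Most of that gap came from Lat, at 81.0 to 97.6 in light zone arrays and 60.6 to 62.8 in dark zone arrays. Cd4 (-0.16, not called) and Trat1 (-0.01, below the filter) went the other way. The part of T cells in the differences of Cd69, Cd44 and Nt5e was not tested.

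CD69 acts on the receptor for sphingosine 1-phosphate (S1P), and a list of S1P receptors, their signalling genes and relatives of CD69 went both ways. Of 13 tested genes, 5 were called higher in light zone cells, 3 lower and 5 not called, with a median of 0.17. Over all tested genes, 23.6% were higher and 17.5% lower. S1pr3, a receptor for S1P, was at 2.18 (SE 0.08), with 1820 to 2044 in light zone arrays and 397 to 485 in dark zone arrays. Klf2, the factor that drives S1pr1, was at 1.95 (SE 0.13), the lectin gene Clec2i at 0.47 (SE 0.08) and S1pr1 itself, the partner of CD69, at 0.46 (SE 0.11). S1pr4 (-0.36, SE 0.07), the G protein gene Gna13 (-0.32, SE 0.07) and S1pr2 (-0.26, SE 0.07), the receptor that holds cells in the germinal centre, were lower in the light zone. S1pr2 was not called with its probe sets averaged (-0.14, adjusted p = 0.075). The count lower was 5 under cyclic loess, with an offset of 16 before log2, or with the fit over the brightest probe sets alone.

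Nt5e, which encodes CD73, went the other way, at 2.89 times the light zone level in the dark zone. Its brightest probe set (1428547_at) had 353, 308, 317 and 314 in the light zone arrays, against 959, 937, 925 and 915 in the dark zone arrays, again without overlap. The difference was -1.53 (SE 0.06, limma adjusted p = 1.9e-08). The next probe set gave 33.4 to 41.7 in light zone arrays and 52.8 to 77.6 in dark zone arrays, with a difference of -0.70 (SE 0.11, limma adjusted p = 4.8e-04). The dimmest tested one, near the filter at 32.6 to 34.7 in light zone arrays and 33.5 to 37.6 in dark zone arrays, was not called (-0.09, SE 0.06, adjusted p = 0.29). With all 3 averaged the difference of Nt5e was -0.77 (adjusted p = 7.1e-07).

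Of 14 other listed enzymes, receptors and transporters of adenosine, 4 were bright enough to test. Of these 4, 1 was called, against 41.1% of all tested genes. The called gene was Ada, the enzyme that breaks adenosine down, with 1136 to 1199 in light zone arrays and 2509 to 2773 in dark zone arrays (-1.14, SE 0.06, limma adjusted p = 1.1e-07). The kinase gene Adk (0.04), the transporter gene Slc29a1 (0.03) and Entpd2 (-0.09) were not called. Entpd1, which encodes CD39, the enzyme upstream of CD73, was below the filter, with means of 14.2 in light zone arrays and 17.2 in dark zone arrays.

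CD80 and PD-L2 (Pdcd1lg2) mark subsets of mouse memory B cells together with CD73. These 2 genes were chosen after their values were seen. Pdcd1lg2 had 69.8, 60.2, 63.6 and 72.9 in the light zone arrays, against 48.0, 45.2, 41.8 and 43.0 in the dark zone arrays, higher by 0.58 (SE 0.08, limma adjusted p = 1.2e-04). Cd80 was near the filter, with 26.6 to 31.2 in light zone arrays and 26.6 to 32.7 in dark zone arrays, and was not called (-0.05, SE 0.08, adjusted p = 0.69). Of the 3 markers, Nt5e was thus lower, Pdcd1lg2 higher and Cd80 not called in the light zone.

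In the wider list of memory and naive B cell genes, 9 of 19 tested genes were called higher in light zone cells, 4 were lower and 6 were not called, with a median of 0.11, against the same 23.6% and 17.5% of all tested genes. The largest was Ccr6 (3.53, SE 0.12), a chemokine receptor of memory B cell precursors, with 492 to 598 in light zone arrays and 40.2 to 61.8 in dark zone arrays. It was followed by Gpr183 (2.17, SE 0.11), the oxysterol receptor that guides B cells, Klf2, and the zinc finger factor Zeb2 (1.55, SE 0.13). The 4 lower genes were the transcription factor Foxp1 (-0.70, SE 0.07), the plexin Plxnb2 (-0.50, SE 0.10), Bach2 (-0.37, SE 0.07), a factor that favours memory over plasma cell fate, and the surface glycoprotein gene Cd24a (-0.30, SE 0.06). With the filter at the 75th percentile, which left out dimmer genes, 4 were higher.

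**Figure D3:**
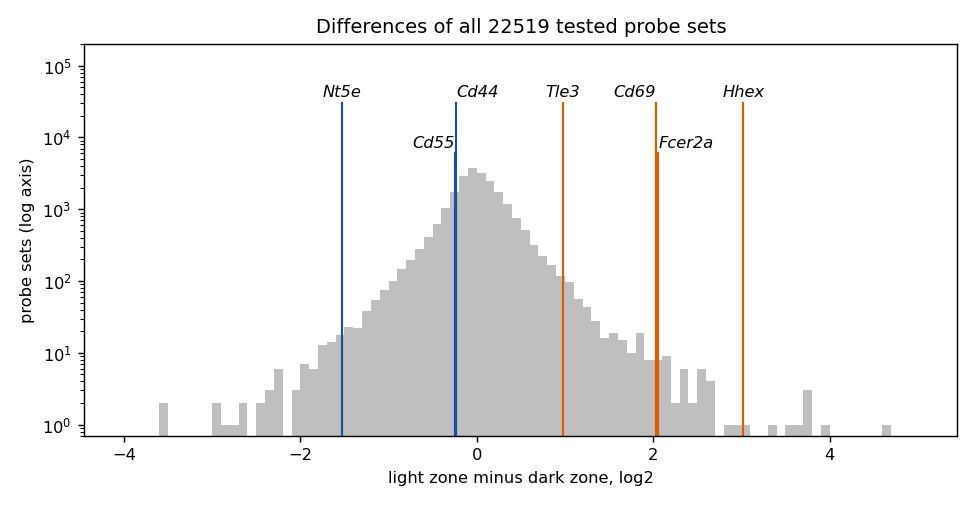
Distribution of the light zone minus dark zone differences (log2, bins of 0.1) of all 22519 tested probe sets on a log axis of counts, with lines at the brightest probe set of each of the 7 genes. Hhex (3.02), Fcer2a (2.06) and Cd69 (2.03) lie in the right tail, Nt5e (-1.53) lies in the left tail, and Cd44 (-0.24) and Cd55 (-0.24) lie near the bulk.

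Cd44, the hyaluronan receptor, differed little. The brightest of its 4 probe sets (1423760_at) had 795, 870, 801 and 874 in the light zone arrays, against 961, 1004, 988 and 980 in the dark zone arrays. The zones did not overlap, but the difference was only -0.24 (SE 0.06, limma adjusted p = 0.0094), or 1.18-fold. Probe set 1434376_at, almost as bright, had 873, 998, 857 and 885 in the light zone arrays, against 777, 933, 950 and 856 in the dark zone arrays, which overlapped and were not called (0.04, 95% interval -0.14 to 0.22). A dimmer one fell by 0.32 (SE 0.06, limma adjusted p = 0.0019), with 59.7 to 62.8 in light zone arrays and 71.8 to 81.2 in dark zone arrays. The fourth was near the floor, at 8.03 to 8.66 in light zone arrays and 8.43 to 9.72 in dark zone arrays.

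Genes of hyaluronan and of CD44's partners went both ways, with 4 of 9 tested higher in the light zone, 2 lower and a median of 0.07. The shares over all tested genes were 23.6% higher and 17.5% lower. Cd74, the invariant chain that pairs with CD44 at the surface (0.37, SE 0.06), the linker genes Ezr (0.35, SE 0.07) and Msn (0.30, SE 0.07), which tie CD44 to actin, and the hyaluronidase gene Hyal2 (0.18, SE 0.07) were higher. Hmmr, a hyaluronan-binding protein of the mitotic spindle, was lower in the light zone (-1.41, SE 0.07), with 539 to 602 in light zone arrays and 1376 to 1551 in dark zone arrays. Nf2, which encodes a relative of ezrin, was also lower (-0.86, SE 0.08).

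Cd55, the complement regulator, was not called by any of its 3 probe sets, and light zone replicate 1 was the highest light zone array in all of them. The brightest (1418762_at) had 236, 117, 77.7 and 88.2 in light zone replicates 1 to 4, against 142, 151, 125 and 139 in the dark zone arrays. Light zone replicate 1 lay above every dark zone array and the other 3 below every one. The difference was -0.24 (SE 0.27, 95% interval -0.83 to 0.34, limma adjusted p = 0.49), and without light zone replicate 1 it was -0.58 (adjusted p = 0.0048). Without light zone replicate 3 it was -0.046, and the call was as with all arrays. Probe set 1443906_at had 81.0, 48.7, 48.7 and 53.5 in the light zone arrays, against 76.2, 61.6, 76.1 and 59.0 in the dark zone arrays (-0.26, SE 0.16, adjusted p = 0.21), and gave -0.43 without light zone replicate 1 (adjusted p = 0.0083). Probe set 1460242_at had 161, 92.9, 66.3 and 67.7 in the light zone arrays, against 95.8, 84.1, 78.6 and 80.9 in the dark zone arrays (0.10, SE 0.23, adjusted p = 0.76). Without light zone replicate 1 it gave -0.18 (adjusted p = 0.28).

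The same array was also high for other genes. Of the 7 listed naive follicular B cell genes with a probe set, 6 had their highest light zone value in light zone replicate 1, among them Klf2 (589 there and 401 to 419 in the other 3) and Fcmr (2517 there and 2001 to 2057). The same held for 4 of 5 probe sets of Bcl2, a gene outside that list, and for 28.4% of all tested probe sets. The 5 Bcl2 probe sets read the same gene in the same RNA, so they are not separate observations. The part of naive cells in the Cd55 values was not tested. The light zone arrays lay at 399 to 428 for Hhex, at 2222 to 2401 for the brighter Fcer2a probe set and at 109 to 181 for the dimmer one, and Cd69 had its highest light zone value in replicate 2. Leaving out any 1 array gave 2.03 to 2.08 for Fcer2a and 1.91 to 2.09 for Cd69, each called.

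**Figure D4:**
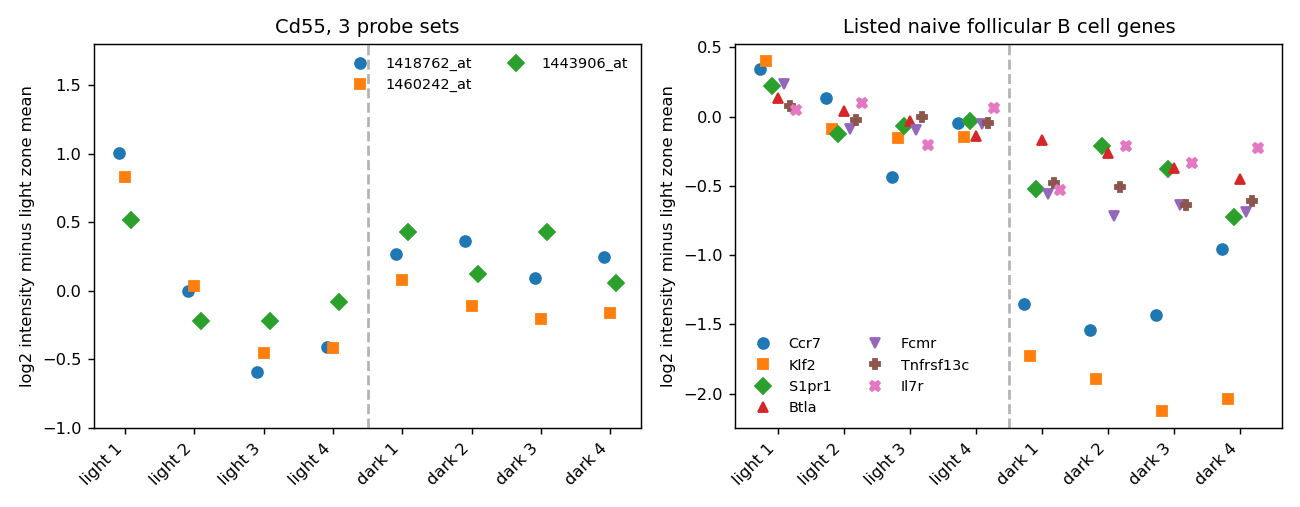
Log2 intensity of the 3 Cd55 probe sets (left) and of the listed naive follicular B cell genes (right) in each array, relative to the mean of the 4 light zone arrays. Light zone replicate 1 is the highest light zone array in all 3 Cd55 probe sets and in 6 of the 7 listed genes.

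Other regulators and receptors of complement were tested for 4 of 13 listed genes, with 1 higher in the light zone, 2 lower and a median of 0.04. The shares over all tested genes were 23.6% higher and 17.5% lower. Cr2 was the higher one of the 4, at 1823 to 2097 in light zone arrays and 832 to 1126 in dark zone arrays. Cd59a, which blocks the final step of complement attack, was lower (-0.67, SE 0.08), as was Cr1l, the rodent regulator Crry (-0.28, SE 0.07). Cr1l reversed to 0.11 and was not called with its probe sets averaged (adjusted p = 0.21). Adgre5, which encodes CD97, a ligand of CD55, was not called (0.36, SE 0.19, adjusted p = 0.14), and Cd55b, a close copy of Cd55, was near the floor, with means of 7.79 in light zone arrays and 8.16 in dark zone arrays.

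Probe sets of the same gene did not always give the same difference. In 9 comparisons of a gene's brightest probe set with another above the filter, 5 reached p = 0.0286 (two-sided exact permutation test). This is the smallest p that the test can give for 4 against 4 arrays with 70 arrangements. None passed after Benjamini-Hochberg adjustment (adjusted p = 0.0514). With that smallest p, 5 of 9 comparisons cannot pass however large they are, so the adjusted test cannot decide which pairs differ. These 5 were 1 pair of Fcer2a, 2 of Nt5e, 1 of Cd44 and 1 of Cd55. For Nt5e the brightest probe set differed from the others by -0.84 and -1.44 on the log2 scale, and for Fcer2a by 0.93. In Cd44 the pair of near equal brightness differed by -0.28.

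**Figure D5:**
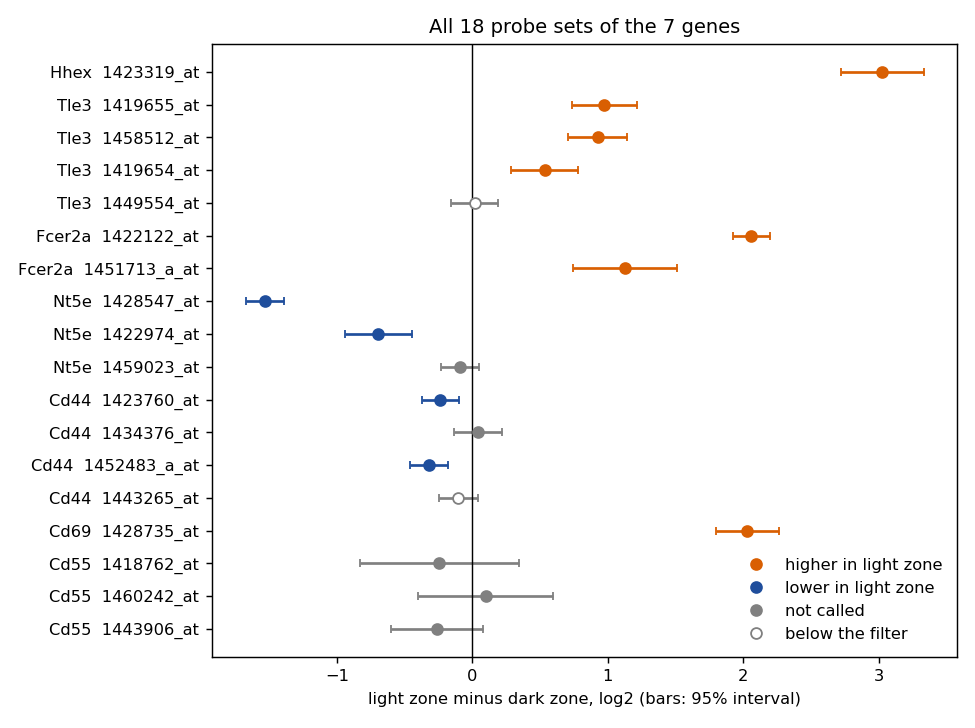
Light zone minus dark zone difference (log2) with its 95% interval for all 18 probe sets, brightest first within each gene, orange where called higher and blue where called lower in the light zone, grey where not called and open where below the filter. Probe sets of Tle3, Fcer2a and Nt5e that were called agree in direction within each gene, and the intervals of Cd55 all include 0.

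To find genes with a like pattern, log2 values of each gene's brightest probe set were centred on their mean over the 8 arrays, and the root mean square (RMS) distance was taken. For a gene with a large zone difference, this distance mostly follows the size of that difference. Fcer2a (2.06) thus lay beside Irf4 (2.03), Rilpl2 (2.16) and Samsn1 (1.96). Shared regulation was not tested. The nearest to Hhex were Egr2 (RMS 0.29), a factor induced by antigen receptor signals, the protease inhibitor gene Serpinb1a (0.29) and the zinc finger gene Hivep3 (0.31). The nearest to Tle3 were Macir (0.11), Dennd11 (0.11) and the AMPK subunit gene Prkab2 (0.11). Fcer2a was closest to the transcription factor gene Irf4 (0.10), Rilpl2 (0.10) and Samsn1 (0.10), an adaptor gene of B cells. Cd69 was closest to the immediate early gene Egr1 (0.11), Rilpl2 (0.13) and Fcer2a itself (0.14). The nearest to Nt5e were the kinetochore gene Cenpf (0.08), Gpd1l (0.08) and the chromatin remodeller gene Smarca4 (0.08). Cd44 lay closest to Polr2a, Kat2b and Srp19 (0.04 each), and Cd55 had no gene nearer than 0.25 (Gm11346), followed by the nuclear receptor gene Nr1d2 (0.27) and Tmem163 (0.31).

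Markers of other cell types were measured in the same arrays. The sum of 10 myeloid genes was 265 to 325 in light zone arrays and 369 to 1122 in dark zone arrays, mostly through Lyz2, with 37.7 to 89.1 in light zone arrays and 128 to 824 in dark zone arrays. Of these, 4 were above the filter, with 1 called higher (Cd68) and 2 lower (Lyz2 and Csf1r) in the light zone. For each list given here, the shares over all tested genes were 23.6% higher and 17.5% lower. Clec7a, below the filter, had 16.3 to 19.0 in light zone arrays and 24.2 to 49.6 in dark zone arrays, without overlap, and Itgam and Cd14 were near the floor. Of 10 plasma cell genes, 9 were tested, with 4 higher in the light zone (Irf4, Prdm1, Creld2 and Edem1) and 1 lower (Slamf7). Prdm1 had a mean of 17.6 in dark zone arrays, below the filter's level, and was tested only through the light zone. The sum of the 10 plasma cell genes was 13507 to 15121 in light zone arrays and 13972 to 15024 in dark zone arrays. Most of it was Jchain and Xbp1, with means of 8192 and 3005 in light zone arrays and 9095 and 2711 in dark zone arrays. The sum thus hardly reflects the dimmer genes of the list. Follicular stroma had 3 tested genes and NK cells 1, with 0 called, and sums of 285 to 371 and 107 to 124 in light zone arrays and 300 to 315 and 111 to 119 in dark zone arrays. The 8 germinal centre B cell genes summed to 15941 to 16806 in light zone arrays and 17246 to 18029 in dark zone arrays, with 1 called higher and 2 lower in the light zone. That gap came mostly through Gcsam, with means of 888 in light zone arrays and 2472 in dark zone arrays. The part of the other cell types in the results above was not tested.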

How the data were processed

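Biotin-labelled cRNA, made per the labels' protocols with a 3' IVT Express kit of Affymetrix, was hybridised to 8 arrays. The deposited intensity values were made by the authors with RMA on a linear scale, per the submitters' processing notes and the values themselves; the version of RMA is not given in the sources used here. Log2 was taken without an offset, as 0 values were at or below 0. RMA sets the arrays to nearly equal distributions, so total RNA per cell cannot be compared, and differences of dim genes are compressed.

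Of 45037 probe sets, 34945 (77.6%) carry 1 gene symbol, 932 several and 9160 have no name in the annotation used. Names were checked against RefSeq GRCm38.p6, in which 34741 probe sets with 1 symbol had a match and 204 had none. This changed 0 symbols. All tested probe sets were fitted together (lmFit and eBayes of limma 3.58.1, R 4.3.3) with Benjamini-Hochberg adjustment over 22519 probe sets at or above the 50th percentile of means. The fit was also run on simulated data with 200 of 22519 probe sets changed. It recovered 14.9% of changes of 0.25 on the log2 scale, 62.7% of changes of 0.5 and 100% of changes of 1. Of its 124 calls there, 4.84% were false. A gene in a list is its brightest probe set. Where probe sets were averaged, those below the filter were included. The number of arrays limits precision, and p-values measure the spread between arrays. The members and lists were chosen with earlier results of these data known. Named genes are the members, the genes of the gate, the TLE family with Bcl6, Bcl2 and Ski, the 4 largest called differences in each list and those against its majority, and the 3 nearest genes in pattern, and list genes named as not called or dim, and marker genes, were added after their values were seen. Alternatives varied the filter, the probe set per gene, the normalization, an offset, the variance model, array weights, the replicate block and the arrays included.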

Additional observations from a re-analysis of the deposited data

Results flagged for a closer look

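In 9 of 176 groups of 4 arrays (probe sets of the named genes, by zone), the highest or lowest array stood apart from the other 3 beyond Dixon's 95% value. Chance flags about 1 in 20 groups, so the number is near what chance gives. On the log2 intensity scale, light zone replicate 1 was high for Klf2 (9.20, others 8.65 to 8.71) and for 2 Bcl2 probe sets (7.37, others 6.84 to 6.92, and 4.56, others 3.85 to 3.94). Light zone replicate 3 was low for Gpr183 (7.17, others 7.48 to 7.53) and light zone replicate 4 for Cr1l (9.59, others 9.76 to 9.79). Among dark zone arrays, replicate 1 was high for Foxp1 (10.92, others 10.83 to 10.85), replicate 3 was low for Gm11346 (4.88, others 5.17 to 5.22), and replicate 4 was low for Hmmr (10.43, others 10.59 to 10.60) and Stat6 (7.86, others 7.98 to 8.0). None of the 18 probe sets of the 7 genes was among them.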

How the results depend on the processing

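The called genes among the 7 (Hhex, Tle3, Fcer2a, Nt5e, Cd44 and Cd69) kept their direction and their call under all alternatives that could give a value, and Tle3 fell below the filter at the 75th percentile. This holds for the brightest probe set of each gene, or the average of its probe sets. The almost as bright Cd44 probe set 1434376_at gave -0.016 to 0.08 under the alternatives and was not called. Cd55 was called under 1 alternative, without light zone replicate 1 (-0.58), and leaving out each array gave -0.58 to -0.046. Leaving out each array gave 0.89 to 1.06 for Tle3, -1.58 to -1.51 for Nt5e and -0.26 to -0.21 for Cd44. Of 9182 probe sets called (4830 higher in the light zone, 4352 lower), leaving out each array left 8141 to 8731 (4276 to 4568 higher, 3784 to 4163 lower). The fit over the brightest probe set per gene called 4629 (2614 higher, 2015 lower) and averaged probe sets 4509 (2360 higher, 2149 lower), since both test fewer features. At the 75th percentile 3122 were higher, and at an adjusted p under 0.01, 2841 were lower. The replicate numbers were not taken as pairs, because no label says that a number marks a shared pool of mice. Same-numbered arrays of the zones correlated at 0.11, 0.177, 0.081 and 0.165 in their deviations from the zone means. Arrays of different numbers gave -0.159 to 0.104. Of the 8 arrays, 7 correlated best with their own number, a hint of pairing from the data only. With the replicate number as a block, 9508 probe sets were called (4981 higher, 4527 lower), none of the 7 genes changed its call, Tle1 was called (-0.19, adjusted p = 0.037), and the counts were 1 lower for HHEX and TLE partners and 2 higher for complement genes. With averaged probe sets, 1 gene was lower in the complement list. Among 76 other named probe sets, Cr1l reversed with averaged probe sets (0.108). In all, 24 values lost their call, mostly those of Polr2a, Srp19 and Tmem163, and 8 gained one. The causes were not tested.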

Other observations

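The probe set named for both Cd55 and Cd55b was left out because it carries 2 symbols. It lay near the floor, with means of 8.50 in light zone arrays and 8.26 in dark zone arrays.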
